A study of Mus musculus with 25 samples.

Results

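This account concerns 9 mouse genes of pyroptosis and necroptosis, the inflammatory forms of programmed cell death, out of 55450 genes in the deposited count table. They were chosen by symbol, as Gsdmd, Casp1, Casp4, Nlrp3, Pycard, Il1b, Il1a, Ripk3 and Mlkl, and each symbol matched 1 row. RNA was measured once in each of 25 whole tumours grown in C57BL/6 mice from B2905 cells, a mouse melanoma line also called M4. Of these, 20 tumours came from an arm of 30 mice given repeated doses of an antibody against CTLA-4, the receptor that restrains T cells, at 10 mg/kg. They were grouped by the labelled outcome, judged by tumour size in the 10 to 11 days after the last dose, into 8 responders that shrank, 6 stable tumours and 6 non-responders that grew. The other 5 tumours, called controls, came from mice given an IgG2b isotype antibody at the same dose. Antibodies began at a mean tumour size of 75 mm3, and all tumours derive from the same implanted line. No genotype, age or sex of the mice is given in the labels used here.

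In pyroptosis, a sensor such as the Nlrp3 protein joins the adaptor encoded by Pycard to form an inflammasome, which activates the protease encoded by Casp1. That protease matures the cytokine encoded by Il1b and cuts the gasdermin encoded by Gsdmd, whose free end forms pores in the cell membrane. The mouse Casp4 protein, historically called caspase-11, senses bacterial lipopolysaccharide in the cytosol and also cuts the gasdermin. In necroptosis, the kinase encoded by Ripk3 phosphorylates the protein encoded by Mlkl, which then breaks the membrane, and Il1a encodes an alarm cytokine released by dying cells. In tumours these genes are best known in macrophages, dendritic cells and neutrophils. The proteins act by assembly, cleavage and phosphorylation, which RNA counts do not measure.

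The promoters of 4 members are shown because Il1b and Il1a had the largest differences between groups, and because Casp1 and Casp4 are neighbours on chromosome 9 whose ratio was lowest in responders. They are RefSeq windows of build GRCm38.p6, from 250 bases before the transcript start to 50 after it, and 8 of the 9 members had such a window. Capitals mark matches, on either strand, to the TATA box (TATAAA), the PU.1 core (GAGGAA) or the kappaB motif. The lines give chr2:129371090-129371389 (minus strand) for Il1b, chr2:129309923-129310222 (minus strand) for Il1a, chr9:5298267-5298566 (plus strand) for Casp1 and chr9:5308599-5308898 (plus strand) for Casp4.
Il1b: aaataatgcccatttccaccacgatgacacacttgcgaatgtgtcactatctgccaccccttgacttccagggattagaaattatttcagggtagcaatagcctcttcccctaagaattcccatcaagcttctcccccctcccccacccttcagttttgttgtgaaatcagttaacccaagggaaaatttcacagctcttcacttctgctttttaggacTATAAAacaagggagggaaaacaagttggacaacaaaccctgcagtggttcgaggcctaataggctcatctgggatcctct
Il1a: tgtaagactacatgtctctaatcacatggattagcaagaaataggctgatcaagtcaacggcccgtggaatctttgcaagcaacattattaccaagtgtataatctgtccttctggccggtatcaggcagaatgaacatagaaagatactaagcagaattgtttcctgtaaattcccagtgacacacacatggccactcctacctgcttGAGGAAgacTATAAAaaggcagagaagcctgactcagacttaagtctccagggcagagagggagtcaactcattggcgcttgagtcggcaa
Casp1: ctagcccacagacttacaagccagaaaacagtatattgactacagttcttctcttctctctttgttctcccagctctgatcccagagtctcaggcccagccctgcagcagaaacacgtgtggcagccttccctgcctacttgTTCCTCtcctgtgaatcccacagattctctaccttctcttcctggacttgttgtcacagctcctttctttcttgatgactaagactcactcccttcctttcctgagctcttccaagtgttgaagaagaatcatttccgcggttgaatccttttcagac
Casp4: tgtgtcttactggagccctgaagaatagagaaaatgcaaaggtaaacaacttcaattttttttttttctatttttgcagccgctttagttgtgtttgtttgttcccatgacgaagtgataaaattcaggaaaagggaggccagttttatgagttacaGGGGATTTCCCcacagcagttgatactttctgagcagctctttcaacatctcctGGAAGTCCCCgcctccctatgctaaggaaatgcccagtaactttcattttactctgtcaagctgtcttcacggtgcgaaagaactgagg
Il1b and Il1a each held a TATA box, at -31 to -26 and at -32 to -27 from the start, and 13.6% of all 32851 promoters held that motif. Casp4 held kappaB matches at 2 places, the first of them made of overlapping matches from -93 to -83 and the other from -39 to -30, and 8.46% of all promoters held a match. Casp1 had a PU.1 core on the reverse strand at -108 to -103 and Il1a had one at -41 to -36, against 28.3% of all promoters with a match. Neither the interferon-stimulated response element (in 3.44% of promoters) nor the interferon gamma-activated site (TTCNNNGAA, in 8.30%) had a match in any of the 10 windows of the members, and the C/EBP motif (TTGCNNAA, in 10.8%) matched only in that of Pycard. A match is a description of letters and no evidence of binding.

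Total counts ranged from 8.76 to 34.3 M per tumour. Protein-coding genes took 82.9 to 89.2% of counts, here called the coding share, in the 17 tumours outside the responders, but 23.8 to 74.3% in 7 of the 8 responders, while responder 5 had 87.0%. Melanocytic marker genes (8 genes, none at 0 in any group) summed to between 10684 and 17512 CPM in controls and between 304 and 725 CPM in responders, with 228 to 505 CPM in stable tumours and 726 to 14062 CPM in non-responders. Their part in the results was not tested. Levels are given as CPM, which scales counts to a common library size. In these bulk samples, fewer cells of a type and less RNA per cell cannot be told apart. The smallest count of a member in any tumour was 6, for Il1a. Genes lie across 4 members on the opposite strand and took few counts or none, with 0 for Gm45712 against 26734 for Mlkl, 42 for Il1bos against 9491 for Il1b, 79 for Gm14023 against 3156 for Il1a, and 205 for Gm45205 against 10415 for Pycard over the 25 tumours.

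Of the 54 tests of 9 members in 6 comparisons, 31 passed an adjusted p of 0.05 in edgeR. Against controls, stable tumours had 8 members higher (22.2% of 18031 tested genes were called higher), responders 6 higher and 1 lower (36.1% and 28.9% of all), and non-responders 6 higher (10.6% of all). Between outcome groups, stable tumours had 4 members higher than non-responders (7.08% of all), responders had 4 higher and 1 lower than non-responders (25.2% and 23.8%), and responders had 1 lower than stable tumours (17.8%). Responders differed from controls in 65.0% of all genes. The 5 of 9 members called in responders against non-responders is near the 48.9% of all genes called there, and the 1 of 9 against stable tumours is below the 38.2% of all. The p-values measure the spread between tumours of separate mice. The 3 comparisons with controls share the same 5 control tumours. The median log2 fold change of the 9 members was 1.96 for stable tumours, 1.58 for responders and 1.21 for non-responders over controls, beside 0.02, 0.16 and 0.04 for all tested genes.

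**Figure D1:**
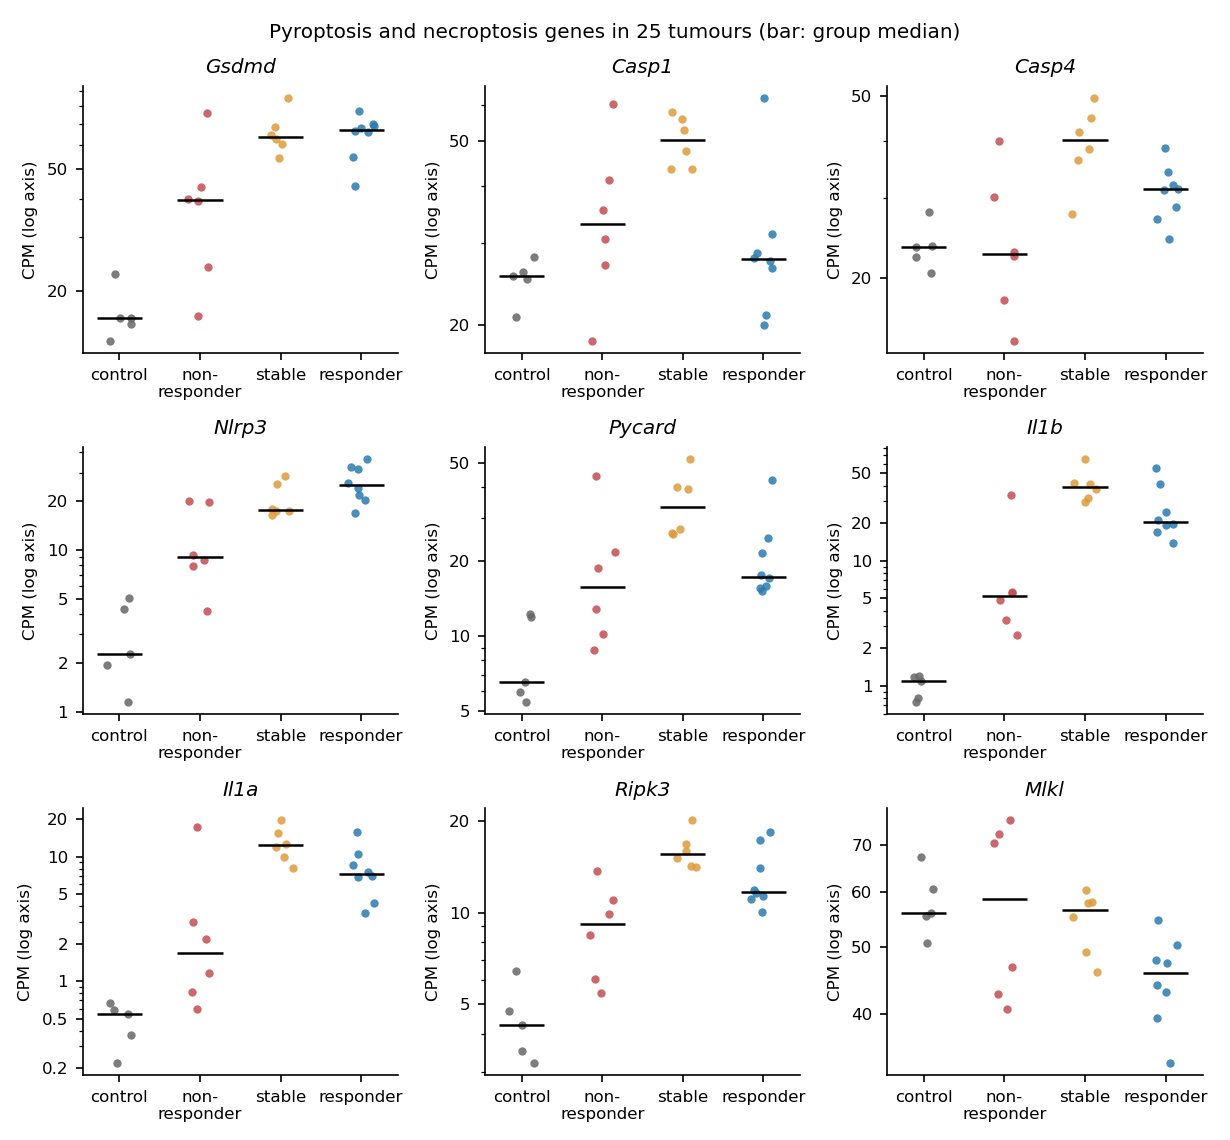
CPM of the 9 genes on log axes in controls, non-responders, stable tumours and responders, with 1 point per tumour and a bar at each group's median. Il1b lies at or below 1.19 CPM in all 5 controls and at or above 13.9 CPM in every stable tumour and responder, while Mlkl spans a narrow range from 34.1 to 75.9 CPM over all 25 tumours.

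The cytokine genes had the widest spread. Il1b (ENSMUSG00000027398.13, chromosome 2, 129364570 to 129371139, minus strand) stood at 1.10, 1.18, 0.743, 0.794 and 1.19 CPM in the 5 controls. In non-responders it ran from 2.54 through a median of 5.21 to 33.7 CPM. In stable tumours the lowest, median and highest were 29.7, 39.1 and 65.1 CPM, and in responders 13.9, 20.5 and 55.6 CPM. Every anti-CTLA-4 tumour was therefore above every control, and non-responder 6, at 33.7 CPM, lay among the stable tumours while the other 5 non-responders stayed at or below 5.62 CPM. The log2 fold change over controls was 5.36 (SE 0.62, adjusted p = 9.93e-07) in stable tumours, 4.73 (SE 0.60, adjusted p = 8.27e-07) in responders and 3.22 (SE 0.57, adjusted p = 0.000743) in non-responders. The genes whose groups did not overlap upward were 18.4%, 14.9% and 2.67% of all tested genes in these 3 comparisons. Il1b was also higher than in non-responders in stable tumours (2.14, SE 0.49, adjusted p = 0.00645) and in responders (1.52, SE 0.46, adjusted p = 0.00961). These values rested in size on non-responder 6, without which they were 3.23 and 2.60, and the difference of non-responders from controls was 2.13. Responders and stable tumours differed by -0.63 (SE 0.43, adjusted p = 0.253), with 6 of 8 responders below every stable tumour.

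Il1a (ENSMUSG00000027399.1, chromosome 2, 129299610 to 129309972, minus strand) lies near Il1b, and its groups stood in the same order. Its control values were 0.367, 0.221, 0.587, 0.548 and 0.673 CPM. Non-responders had 0.602, 1.68 and 17.3 CPM as lowest, median and highest, stable tumours 8.12, 12.3 and 19.6 CPM, and responders 3.49, 7.23 and 15.8 CPM. All stable tumours and responders were above all controls, and again non-responder 6 alone among non-responders reached the stable range. Over controls the log2 fold change was 4.75 (SE 0.74, adjusted p = 1.7e-05) in stable tumours, 4.06 (SE 0.70, adjusted p = 3.2e-05) in responders and 3.13 (SE 0.69, adjusted p = 0.00345) in non-responders. The last was 1.69 without non-responder 6, and lost its call in a fit of non-responders and controls alone (adjusted p = 0.0531) and in limma on log2(RPKM + 1) (adjusted p = 0.088). Against non-responders, stable tumours (1.62, adjusted p = 0.0606) and responders (0.93, adjusted p = 0.158) did not pass. Stable tumours passed in 5 of the 11 settings that left out no single tumour, among them DESeq2 (1.64, adjusted p = 0.0228), and responders passed in all 3 limma settings on RPKM (1.09 to 1.71, adjusted p from 0.0023 to 0.00594). Without non-responder 6 both groups passed, at 3.06 (adjusted p = 0.000108) and 2.37 (adjusted p = 0.00013). Keratinocytes are a known source of Il1a, and their markers (8 genes) summed to 7.92 to 570 CPM in controls, 1.98 to 302 CPM in non-responders, 8.09 to 87.9 CPM in stable tumours and 0.629 to 1315 CPM in responders. The part of these cells in the Il1a values was not tested.

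The sensor and its adaptor came next. Nlrp3 (ENSMUSG00000032691.14, chromosome 11, 59541568 to 59566956, plus strand) had 1.93, 4.31, 2.27, 1.15 and 5.02 CPM in controls. It ran from 4.17 through 9.01 to 20.1 CPM in non-responders, from 16.4 through 17.7 to 28.4 CPM in stable tumours and from 16.9 through 25.1 to 36.3 CPM in responders. Nlrp3 and Gsdmd were the members whose median was highest in responders, and 7 of 8 responders were above every non-responder. Its log2 fold change over controls was 3.17 (SE 0.38, adjusted p = 4.53e-07) in responders, 2.82 (SE 0.38, adjusted p = 4.05e-06) in stable tumours and 2.00 (SE 0.37, adjusted p = 0.000964) in non-responders. Responders exceeded non-responders by 1.17 (SE 0.32, adjusted p = 0.00507), a call lost after adjustment for the coding share (1.08, adjusted p = 0.0716). Responders and stable tumours differed by 0.35 (adjusted p = 0.378), and stable tumours and non-responders by 0.82 (adjusted p = 0.0999), which passed without non-responder 5 or 6 and in limma on log2(RPKM + 1) (adjusted p = 0.0377).

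Pycard (ENSMUSG00000030793.4, chromosome 7, 127989708 to 127993867, minus strand), the adaptor gene, had 5.43, 5.93, 11.9, 6.52 and 12.3 CPM in controls. Its lowest, median and highest were 8.81, 15.8 and 44.2 CPM in non-responders, 25.8, 33.2 and 51.7 CPM in stable tumours and 15.2, 17.4 and 42.5 CPM in responders. The highest non-responder was number 6 and the highest responder was number 5, and the other 7 responders lay below every stable tumour. Those 7 were also the responders with a coding share of at most 74.3%. It was higher than in controls in stable tumours (log2 fold change 2.06, adjusted p = 0.000109), responders (1.35, adjusted p = 0.002) and non-responders (1.21, adjusted p = 0.028). The last call was lost without control 1, 2 or 4 or non-responder 4 or 6, where it fell as low as 0.79, and also with no low-count filter (adjusted p = 0.078) and in a fit of those 2 groups alone (adjusted p = 0.0959). Responders differed from stable tumours by -0.71 (adjusted p = 0.0768), a difference that passed without responder 5 (-0.94, adjusted p = 0.0138) or non-responder 6 (adjusted p = 0.0374) and in a fit of those 2 groups alone (-0.67, adjusted p = 0.0453).

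The inflammatory caspases had smaller differences. Casp1 (ENSMUSG00000025888.5, chromosome 9, 5298517 to 5307265, plus strand) had 25.1, 26.1, 20.8, 25.5 and 28.1 CPM in controls. Its lowest, median and highest were 18.4, 33.1 and 60.2 CPM in non-responders, 43.5, 50.3 and 57.8 CPM in stable tumours and 20.0, 27.7 and 62.0 CPM in responders. Every stable tumour was above every control, and 7 of 8 responders were below every stable tumour, with responder 5 above them all. Stable tumours exceeded controls by 1.00 (SE 0.25, adjusted p = 0.00251), and responders were below stable tumours by -0.71 (SE 0.22, adjusted p = 0.0164), the only member called between those groups. That call was lost after adjustment for the coding share (-0.32, adjusted p = 0.575) and without the 3 responders of lowest share (-0.51, adjusted p = 0.15). Casp1 in responders did not pass against controls (0.29, adjusted p = 0.284, but it passed in all 3 limma settings and after adjustment for the coding share, at 0.44 to 0.71) or non-responders (-0.21, adjusted p = 0.449), and the sign of the latter turned with that adjustment and in limma on RPKM.

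Casp4 (ENSMUSG00000033538.13, chromosome 9, 5308828 to 5336783, plus strand), the lipopolysaccharide-sensing caspase, had 27.9, 20.6, 23.5, 23.5 and 22.3 CPM in controls. Non-responders ran from 14.6 through 22.6 to 40.0 CPM, stable tumours from 27.6 through 40.1 to 49.5 CPM and responders from 24.3 through 31.3 to 38.6 CPM. All groups overlapped their neighbours. It was higher in stable tumours than in controls (0.75, SE 0.19, adjusted p = 0.00254) and than in non-responders (0.69, SE 0.18, adjusted p = 0.0137). The second call was lost in a fit of those 2 groups alone (adjusted p = 0.0597). In responders the difference from controls was 0.40 (adjusted p = 0.0576), which passed in 8 of the 11 settings other than leaving out a tumour.

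Gsdmd (ENSMUSG00000022575.5, chromosome 15, 75862327 to 75867408, plus strand), the pore-forming gasdermin, had 16.3, 16.4, 13.8, 15.7 and 22.7 CPM in controls. Its lowest, median and highest were 16.6, 39.6 and 75.9 CPM in non-responders, 54.4, 63.5 and 85.1 CPM in stable tumours and 44.2, 67.2 and 77.2 CPM in responders. Every stable tumour and responder was above every control, and 5 of 6 non-responders were. The log2 fold change over controls was 1.96 (SE 0.26, adjusted p = 2.69e-06) in stable tumours, 1.92 (SE 0.25, adjusted p = 9.84e-07) in responders and 1.23 (SE 0.25, adjusted p = 0.00176) in non-responders. Gsdmd was also higher than in non-responders in responders (0.69, SE 0.22, adjusted p = 0.0132) and stable tumours (0.72, SE 0.23, adjusted p = 0.0373). The first of these calls was lost after adjustment for the coding share (0.54, adjusted p = 0.19) and without the 3 responders of lowest share (0.61, adjusted p = 0.0709), and the second in a fit of those 2 groups alone (0.72, adjusted p = 0.105), with no low-count filter (0.69, adjusted p = 0.0552) and without any 1 of 8 of the 25 tumours, named in the closing section. Responders and stable tumours differed by -0.03 (SE 0.22, adjusted p = 0.914), with a sign that turned between settings.

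**Figure D2:**
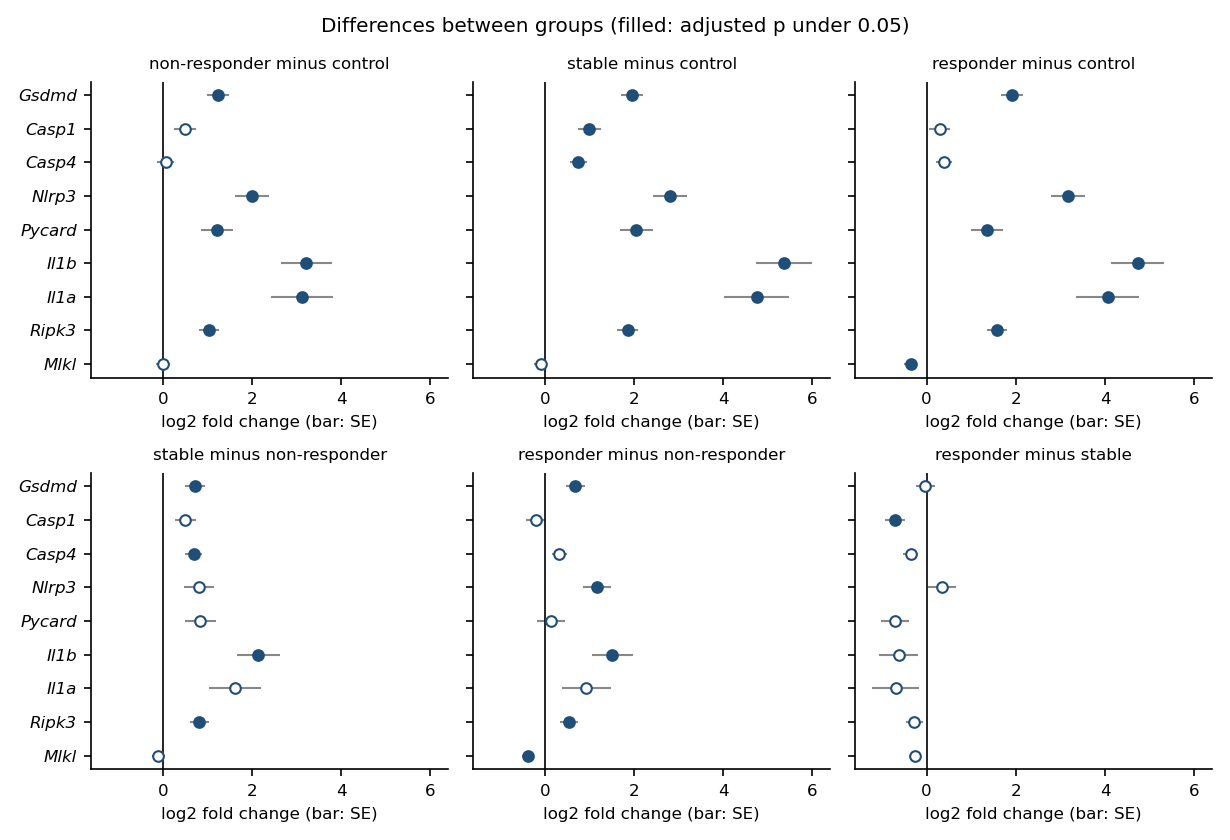
Log2 fold change of each gene on the horizontal axis in the 6 comparisons, with bars for the SE and filled points for an adjusted p under 0.05. Il1b and Il1a lie farthest to the right in the comparisons with controls, up to 5.36, and Mlkl lies at or left of 0.01 in all 6 panels.

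Of the necroptosis pair, Ripk3 was higher than in controls in all 3 outcome groups and Mlkl in none. Ripk3 (ENSMUSG00000022221.14, chromosome 14, 55784995 to 55788865, minus strand), the kinase gene, had 3.50, 4.75, 4.26, 3.21 and 6.42 CPM in controls. It ran from 5.44 through 9.17 to 13.6 CPM in non-responders, from 14.1 through 15.5 to 20.1 CPM in stable tumours and from 10.1 through 11.7 to 18.4 CPM in responders. Ripk3 was the only member for which every stable tumour lay above every non-responder, as did 2.07% of all tested genes. It was higher than in controls in stable tumours (1.86, SE 0.23, adjusted p = 1.49e-06), responders (1.58, SE 0.22, adjusted p = 2.22e-06) and non-responders (1.04, SE 0.22, adjusted p = 0.00266). It was also higher than in non-responders in stable tumours (0.82, SE 0.21, adjusted p = 0.0113) and responders (0.54, SE 0.20, adjusted p = 0.0262). The responder call was lost without non-responder 2 or 3 or responder 2, with a lowest value of 0.43, with no low-count filter (0.46, adjusted p = 0.0779), in a fit of those 2 groups alone (0.55, adjusted p = 0.0503) and after the same adjustment (0.62, adjusted p = 0.0916).

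Mlkl (ENSMUSG00000012519.14, chromosome 8, 111311797 to 111338177, minus strand), which encodes the executor of necroptosis, had 55.3, 67.2, 56.0, 50.6 and 60.4 CPM in controls. Its lowest, median and highest were 40.7, 58.6 and 75.9 CPM in non-responders, 46.0, 56.4 and 60.3 CPM in stable tumours and 34.1, 45.8 and 54.7 CPM in responders. The groups overlapped throughout, although 7 of 8 responders were below every control. Non-responders (0.01, SE 0.15, adjusted p = 0.981) and stable tumours (-0.09, SE 0.15, adjusted p = 0.678) did not pass against controls. Responders were lower than controls (-0.36, SE 0.14, adjusted p = 0.0309) and non-responders (-0.37, SE 0.14, adjusted p = 0.0295). These calls were lost without control 2 or 5 or responder 2 or 6, and without non-responder 1, 3 or 6 or responder 2 or 6, and also in limma on log2(RPKM + 1) (-0.17, adjusted p = 0.261, and -0.23, adjusted p = 0.118). The call against controls was lost in 5 and that against non-responders in 8 of the 11 settings that kept every tumour or dropped the 3 responders of lowest coding share.

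Levels can be compared between genes only per gene length, as in the authors' RPKM (reads scaled by gene length and by library size). In controls Mlkl was the highest member at 19.2 ± 2.25 RPKM (SD, n = 5), with all 5 tumours above any value of Casp1 (12.2 ± 1.04) or Casp4 (11.3 ± 1.35), which overlapped each other. Gsdmd followed at 6.86 ± 1.46 RPKM and Pycard at 3.50 ± 1.31, and Il1b and Il1a were lowest and alike at 0.306 ± 0.0661 and 0.310 ± 0.0931 RPKM. In responders Gsdmd was highest at 28.9 ± 6.10 RPKM (SD, n = 8), followed by Casp4 (17.5 ± 2.89), Casp1 (17.4 ± 5.17) and Mlkl (17.1 ± 2.79), whose ranges overlapped. The range of Gsdmd, from 17.6 to 35.0 RPKM, overlapped theirs as well. In responder 5, with a coding share of 87.0%, Casp1 (28.2 RPKM) was above Gsdmd (25.0 RPKM), and Gsdmd led in every other responder. In stable tumours Gsdmd (25.3 ± 3.60 RPKM, SD, n = 6) and Casp1 (23.9 ± 1.98) led, with overlapping ranges, and Il1b reached 11.3 ± 3.22 RPKM. Non-responders had Mlkl (20.5 ± 5.08 RPKM, SD, n = 6), Casp1 (17.3 ± 6.23) and Gsdmd (16.2 ± 7.42) within each other's spread.

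**Figure D3:**
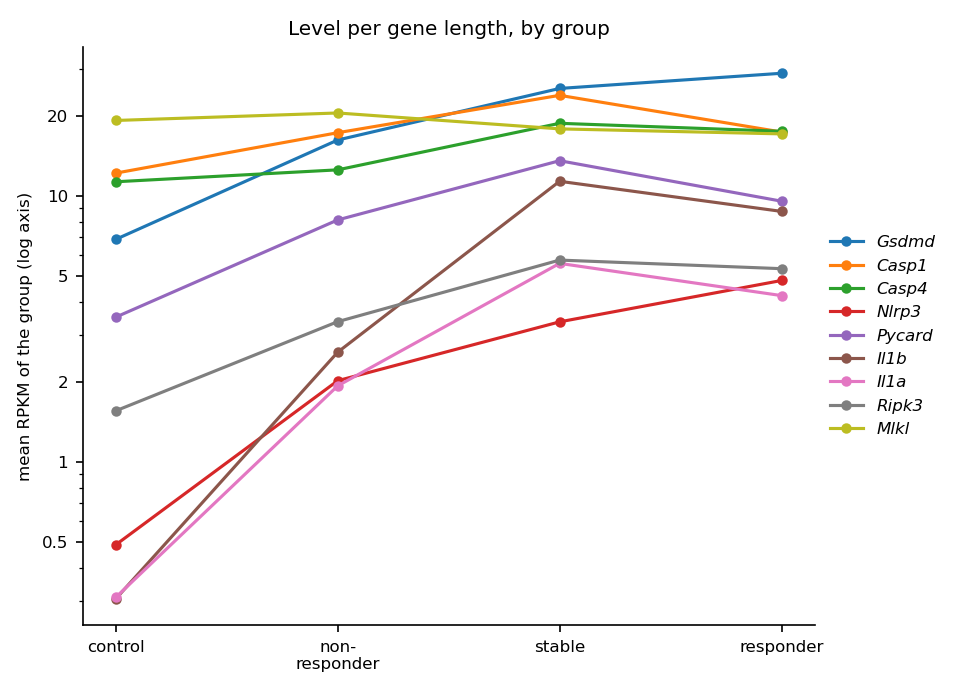
Mean RPKM of each gene on a log axis in the 4 groups, joined by lines for legibility only. Mlkl stays between 17.1 and 20.5 RPKM while Gsdmd goes from 6.86 RPKM in controls to 28.9 RPKM in responders.

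Ratios of members within a tumour do not depend on the library size used for scaling. In RPKM they do depend on the gene lengths used, which are not given and did not act alike in every tumour. Casp1 and Casp4 had 753 and 836 counts and 12.1 and 13.5 RPKM in control 1. In responder 1 they had 94 and 109 counts but 13.1 and 13.4 RPKM. The log2 ratio of Gsdmd to Mlkl in RPKM lay between -1.81 and -1.05 in controls, between -1.87 and 0.29 in non-responders, between 0.06 and 0.82 in stable tumours and between 0.12 and 1.03 in responders. The controls thus did not overlap the stable tumours or responders. The log2 ratio of Casp1 to Casp4 had a median of -0.08 in responders, 0.32 in stable tumours, 0.43 in non-responders and 0.15 in controls. Responder 5, at 0.62, was the highest responder and lay inside the stable range, and the other 7 responders lay below every stable tumour. Those 7 were also the responders with a coding share of 23.8 to 74.3%, against 87.0% in responder 5. The ratio in responders thus cannot be told apart from that share, whose part was not tested. The log2 ratio of Il1b to Il1rn, which encodes the natural antagonist of the same receptor, had a median of -2.23 in controls, of -1.38 among non-responders, of -0.84 in stable tumours and of -0.82 among responders, and was below 0 in every tumour. These ratios were chosen after the values were seen and were not tested.

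**Figure D4:**
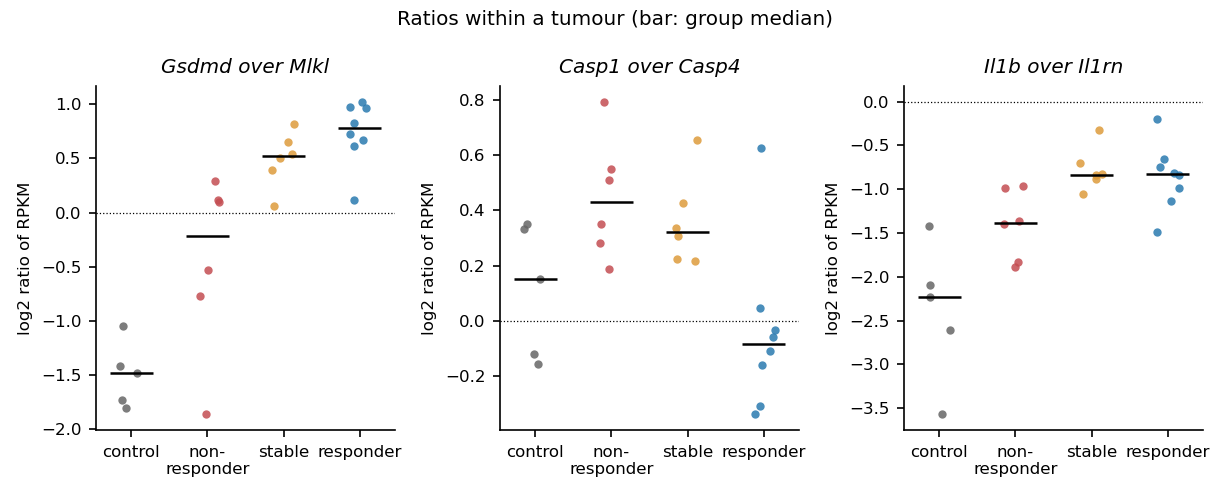
Log2 ratio of RPKM within each tumour for 3 gene pairs, with 1 point per tumour and bars at group medians. Gsdmd over Mlkl is below -1 in all controls and above 0 in all stable tumours and responders, and 7 responders lie below the stable tumours in Casp1 over Casp4. Those 7 have coding shares of 23.8 to 74.3%.

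Markers of the cells known for these genes moved with several results, and their part in the results was not tested. Macrophage and monocyte markers (12 genes, all tested and none at 0 in any group) summed to 824 to 1557 CPM in controls, 1323 to 9198 CPM in non-responders, 6872 to 10480 CPM in stable tumours and 2796 to 11438 CPM in responders. All 12 were called higher in stable tumours than in controls (22.2% of all tested genes), and 7 of 12 lower in responders than in stable tumours (17.8% of all). In responders against non-responders 1 of 12 was called higher (25.2% of all) and none lower, with a median log2 fold change of 0.01. Stable tumours had 5 of 12 higher than non-responders (7.08% of all). The highest tumours of the non-responder and responder groups were non-responder 6 and responder 5, the same tumours that were highest for Casp1 and Pycard in those groups. Responder 5 also had the highest coding share of the responders, at 87.0%. Of the 6 responders whose macrophage sums were below every stable tumour, Gsdmd stood at 66.2 to 77.2 CPM in responders 1, 4, 6, 7 and 8 and at 44.2 CPM in responder 3. Responders 1, 4, 6, 7 and 8 also had the lowest coding shares, at 23.8 to 70.3%, against 74.3% in responder 3. Responder 1, the highest for Gsdmd in CPM, had the lowest share and 346 counts of the gene. In RPKM the highest for Gsdmd was responder 7, at 35.0 RPKM, against 30.4 RPKM in responder 1. Neutrophil markers (11 genes, 8 tested) summed to 6.01 to 12.3 CPM in controls, 9.84 to 44.9 CPM in non-responders, 42.2 to 71.6 CPM in stable tumours and 34.8 to 97.2 CPM in responders, with Ly6g, Ngp and Camp at 0 in controls and Ngp at 0 in non-responders. Dendritic cell markers (6 genes, none at 0) summed to 10.6 to 24.6 CPM in controls, 17.7 to 55.8 CPM in non-responders, 47.0 to 77.2 CPM in stable tumours and 29.3 to 67.2 CPM in responders.

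**Figure D5:**
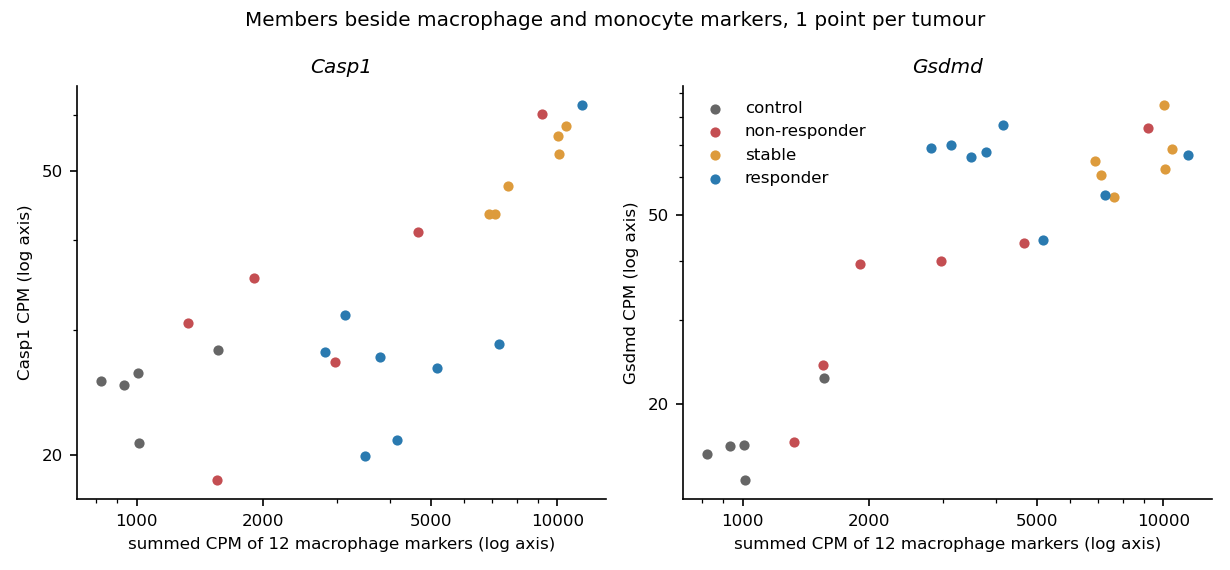
CPM of Casp1 and Gsdmd against the summed CPM of 12 macrophage and monocyte markers, both on log axes, with 1 point per tumour coloured by group. For Casp1 the 6 stable tumours, responder 5 and non-responder 6 form the upper right, and for Gsdmd 5 responders lie at 66.2 to 77.2 CPM at lower marker sums. Those 5 have the lowest coding shares, at 23.8 to 70.3%.

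Across the 25 tumours, the 8 members other than Mlkl correlated positively in every pair. Pearson's r of log2 CPM between pairs ran from -0.32 (Nlrp3 and Mlkl) to 0.96 (Il1b and Il1a), with a median of 0.76 over 36 pairs. These are descriptions that mix differences between groups with library depth and composition. For deviations from the group means, r ran from 0.10 (Nlrp3 and Mlkl) to 0.83 (Pycard and Il1a), with 0.79 for Il1b and Il1a. By that measure r was 0.16 for Casp4 and Nlrp3, against 0.50 over the 25 tumours, and 0.45 for Nlrp3 and Il1a, against 0.85. Mlkl was then positive with every other member, at most 0.56 with Casp4. Predicted genes (Gm and Rik names) were left out of the search for like genes. The genes most like Gsdmd over the 25 tumours were Prkcd (r = 0.99), Unc13d (0.99) and Trafd1 (0.98), and those most like Ripk3 were Ncf1, Snx20 and Tapbp (each 0.98). Casp1 was most like Pla2g16 (0.96), Erap1 (0.95) and Serpinb9 (0.94), and Casp4 was most like Riok3 (0.92), Nhlrc3 (0.89) and Snx10 (0.89). Il1b was most like Cxcl16, Igsf6 (each 0.98) and Gpr141 (0.97), Il1a was most like Msr1, Dram1 and Acod1 (each 0.97), and Pycard was most like Plbd1 (0.96), Tapbpl and Tnfaip8l2 (each 0.95). Nlrp3 was most like Cd6, Ccdc88b and Itgal (each 0.96). For Mlkl the highest r were lower, at 0.78 for Wdr55, 0.77 for Rrp9 and 0.76 for Lars.

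Of 14 other listed inflammasome sensors and activators 13 were tested, and 11 were higher and 1 lower than in controls both in responders (36.1% of all genes were higher) and in stable tumours (22.2%). Non-responders had 10 higher and 1 lower than controls (10.6% of all higher), and responders had 3 higher and 1 lower than stable tumours. Between responders and stable tumours 38.2% of all genes were called. Over controls the list's median log2 fold change was 2.11 in responders, 2.22 in stable tumours and 1.07 in non-responders. Mefv, which encodes the pyrin sensor, had means of 0.90, 6.72, 19.0 and 23.9 CPM in controls, non-responders, stable tumours and responders, with log2 fold changes over controls of 4.73 in responders (adjusted p = 1.25e-07) and 4.41 in stable tumours (adjusted p = 8.37e-07). Aim2, a sensor of cytosolic DNA, exceeded controls by 2.67 in stable tumours (adjusted p = 8.21e-07) and 1.66 in non-responders (adjusted p = 0.000551). Its means were 2.68, 8.44, 17.0 and 18.6 CPM in controls, non-responders, stable tumours and responders. The lowest responder, at 11.5 CPM, was above the highest control, at 3.78 CPM. In responders over non-responders 7 were higher and 1 lower (25.2% and 23.8% of all), led by Mefv (1.82, adjusted p = 0.000766) and Nlrp1b (1.73, adjusted p = 0.000255). Nlrp1b was also higher in responders than in stable tumours (1.02, adjusted p = 0.0131), as was Naip5 (0.67, adjusted p = 0.0256), a receptor for bacterial proteins whose reads may be split with close copies in the same family. The Nlrp1b and Naip5 differences from stable tumours lost their calls after adjustment for the coding share (0.58 and 0.32) and without the 3 responders of lowest share, and that of Naip5 also without stable tumour 2 or 5. Nek7, which encodes a partner of the Nlrp3 protein, went the other way, at 177 CPM in controls and 91.5 CPM in responders (-0.95, adjusted p = 9.2e-07), and was lower in responders than in non-responders (-0.50) and stable tumours (-0.42), calls that the adjustment also removed, the latter being lost too without the 3 responders of lowest share.

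Among 10 listed genes of the gasdermin family and membrane rupture, 3 had enough counts to test. Gsdme, a gasdermin cut by apoptotic caspases, had means of 2.82, 3.11, 5.64 and 5.54 CPM in controls, non-responders, stable tumours and responders. It was higher than in controls in responders (0.98, adjusted p = 0.00273) and stable tumours (1.00, adjusted p = 0.00559), and higher than in non-responders in responders (0.83, adjusted p = 0.00925) and stable tumours (0.85, adjusted p = 0.0314). The last of these calls was lost without non-responder 1, 2 or 3 or stable tumour 3 or 4, with a lowest value of 0.69, and also with no low-count filter and in a fit of those 2 groups alone. Ninj1, which encodes the protein that ruptures the dying cell's membrane, was lower in responders than in stable tumours (-0.88, adjusted p = 0.00469), at means of 57.5 and 106 CPM, a call lost after adjustment for the coding share (-0.52, adjusted p = 0.381) and without the 3 responders of lowest share (adjusted p = 0.0646). Gsdma, a gasdermin of skin, was called in none of the 6 comparisons and ran from 0 to 42.6 CPM within responders.

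Of 12 genes of the IL-1 family, 8 were higher and none lower in stable tumours than in controls, 7 higher and 1 lower in responders, and 5 higher in non-responders. The shares of all tested genes were 22.2% higher in stable tumours, 36.1% higher and 28.9% lower in responders, and 10.6% higher in non-responders. Il1rn exceeded controls by 3.65 in stable tumours (adjusted p = 1.57e-05) and 3.24 in responders (adjusted p = 1.96e-05), rising beside Il1b. Il18r1, which encodes a receptor chain for interleukin-18 found on T and NK cells, exceeded controls by 4.36 in responders (adjusted p = 1.28e-07). Mean Il18r1 was 1.90, 12.8, 33.0 and 38.4 CPM in controls, non-responders, stable tumours and responders. Il18 itself, the other substrate of the Casp1 protease, was called in none of the 6 comparisons, with means from 1.91 CPM in controls to 3.04 CPM in stable tumours. Its soluble inhibitor Il18bp rose over controls in all 3 outcome groups, by 1.96 in non-responders (adjusted p = 0.00153). Il33 was lower in responders than in stable tumours (-1.11, adjusted p = 0.0108), and Il1rap was lower in responders than in controls (-0.80, adjusted p = 0.0043). Both of these calls were lost after adjustment for the coding share and without the 3 responders of lowest share.

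Upstream of necroptosis, 10 of 15 listed genes were higher and 1 lower in stable tumours than in controls, 8 higher and 4 lower in responders, and 5 higher in non-responders. Of all tested genes, 22.2% were higher in stable tumours, 36.1% higher and 28.9% lower in responders, and 10.6% higher in non-responders. The 4 of 15 lower in responders is near the share of all. Tnf, a cytokine that can start the pathway, exceeded controls by 3.58 in stable tumours (adjusted p = 6.25e-06), 3.20 in responders (adjusted p = 7.5e-06) and 2.74 in non-responders (adjusted p = 0.000749). Zbp1, a nucleic acid sensor that engages the Ripk3 kinase, exceeded controls by 2.02 in stable tumours (adjusted p = 2.49e-05) and 1.85 in non-responders (adjusted p = 0.000658). Mean Zbp1 was 14.0, 50.3, 56.6 and 46.9 CPM in controls, non-responders, stable tumours and responders. Ripk1, whose kinase partners with that of Ripk3, was lower in responders than in stable tumours (-0.38, adjusted p = 0.00942), a call lost after adjustment for the coding share, without the 3 responders of lowest share and in all 3 limma settings. The inhibitors Birc2 and Birc3 were higher in responders than in non-responders (0.58, adjusted p = 0.0016, and 0.61, adjusted p = 0.0123). Tlr3 was lower in responders than in non-responders (-0.84, adjusted p = 0.000423), and that call was lost after that adjustment (-0.51, adjusted p = 0.0751). Casp8, which restrains necroptosis, was called in none of the 6 comparisons.

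Guanylate-binding proteins open bacteria-containing vacuoles to the Casp4 protease, and IRF factors control several of the genes above. The list of 10 genes also held Irgm1 and Irgm2, which belong to neither family. All 10 listed genes were higher in stable tumours than in controls, 9 in responders and 9 in non-responders, with median log2 fold changes of 2.66, 1.75 and 1.85. The shares of all tested genes called higher were 22.2%, 36.1% and 10.6%. Gbp2 had means of 68.4 CPM in controls, 418 CPM in non-responders, 1030 CPM in stable tumours and 522 CPM in responders, and exceeded controls by 3.91 in stable tumours (adjusted p = 1.5e-06). It was lower in responders than in stable tumours (-0.98, adjusted p = 0.0385), a call lost under 8 of 11 settings. Gbp2b was lower there too (-2.05, adjusted p = 0.00941). That call was lost after adjustment for the coding share (-1.46, adjusted p = 0.407) and without the 3 responders of lowest share (-1.87, adjusted p = 0.0805). Between those groups 5 of the 10 genes were lower and 1 higher, where 38.2% of all genes were called and 17.8% were lower. Irf2, a factor known to drive Gsdmd transcription, exceeded in responders its level in non-responders (0.93, adjusted p = 0.00156) and in stable tumours (0.55, adjusted p = 0.0448). Both calls were lost after adjustment for the coding share, and the one against stable tumours was lost in 5 of 11 settings and without any 1 of 14 of the 25 tumours. Over the 25 fits that left out a tumour its value ran from 0.47 to 0.66.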

How the data were processed

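The authors deposited 2 tables of the same 25 tumours, one of estimated counts per gene, of which 5.64% were not whole, and one of RPKM. The submitters' processing notes name bcl2fastq 2.17, Trimmomatic, STAR 2.5.1, RSEM 1.2.22 and mouse build mm10, with no settings. The strand setting of the counting is not given in the sources used here, nor are the lengths and read totals behind the deposited RPKM. All gene identifiers matched GENCODE release M21 (GRCm38), which gave the coordinates. An untreated arm was not analysed here.

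Estimated counts were rounded and fitted with edgeR 4.0.16 in R 4.3.3 (TMM, filterByExpr, quasi-likelihood test with 4 group means, two-sided). P-values were adjusted by Benjamini-Hochberg over 18031 genes, and a gene was called at an adjusted p under 0.05. Each SE is the absolute log2 fold change divided by the square root of the test's F statistic, and was not estimated directly by the fit. CPM used TMM-scaled library sizes. The procedure was tested on simulated data in which few genes differed, in responders only, and all libraries had the same composition otherwise. That test cannot speak for these tumours, where 48.9% of genes were called between responders and non-responders and the coding share differed. Alternatives used DESeq2 1.42.0, limma 3.58.1 on the authors' RPKM as log2(RPKM + 1) or log2(RPKM + 0.1), whose fold changes are understated for low genes, other filters and scalings, adjustment for each library's protein-coding share as a covariate (the coding share), and each tumour left out. Leaving out the 3 responders of lowest coding share was chosen after seeing the data. The genes to name were the 9 members, the 3 genes most like each member (predicted genes with Gm and Rik names left out), and genes of each pathway list. For the lists, the rule took the called genes with the 2 highest and 2 lowest fold changes in a comparison, with a mean of at least 1 CPM. Naip2, Il18rap, Myd88, Tlr4, Pgam5, Fadd and Gbp5 also met that rule and are not described here. Gsdma, Il18, Casp8 and the receptor antagonist ratio were added after their values were seen. The members and lists were chosen with earlier results of these data known.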

Additional observations from a re-analysis of the deposited data

Results flagged for a closer look

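In 7 of 36 sets of values (9 genes in 4 groups), 1 tumour lay far from the others of its group by Dixon's criterion, which chance meets in about 1 of 20 sets. Non-responder 6 stood apart for Il1b at 33.7 CPM (the nearest other non-responder had 5.62 CPM), for Il1a at 17.3 CPM (nearest 2.99 CPM) and for Pycard at 44.2 CPM (nearest 21.9 CPM). Responder 5 stood apart for Casp1 at 62.0 CPM (nearest 31.4 CPM) and for Pycard at 42.5 CPM (nearest 24.8 CPM). Stable tumour 4 had 65.1 CPM of Il1b (nearest 42.1 CPM), and control 5 had 22.7 CPM of Gsdmd (nearest 16.4 CPM). The 9 genes share their libraries, so the sets are not independent.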

How the results depend on the processing

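Of 9 members, 5 were called between responders and non-responders, but 3 in a fit of those groups alone, 1 with each library's protein-coding share as a covariate, and 3 without the 3 responders of lowest share. Among all genes the 8823 calls there became 1810 with the covariate and 5768 without those responders. Between responders and stable tumours the 1 member called became 2 in a fit of those groups alone and 0 both with the covariate and without those responders, and the 6891 genes became 0 and 1400. Between stable tumours and non-responders the 4 members became 2 in a fit of those groups alone, 8 in limma on log2(RPKM + 1) and 7 on log2(RPKM + 0.1). Between non-responders and controls the 2500 genes became 1559 in a fit of those groups alone.

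Signs turned only for differences that had not passed. Casp1 in responders against non-responders (-0.21) was 0.18 with the covariate, 0.033 in limma on log2(RPKM + 1) with or without a filter and 0.036 on log2(RPKM + 0.1). Gsdmd in responders against stable tumours (-0.03) was 0.071 with a stricter filter, 0.0067 in a fit of those groups alone, 0.025 with protein-coding genes only, 0.16 in limma on log2(RPKM + 1) with or without a filter and 0.17 on log2(RPKM + 0.1). In non-responders against controls Casp4 (0.07) was -0.036 with no filter, and Mlkl (0.01) was -0.027 in DESeq2 and with RLE size factors, -0.032 in a fit of those groups alone, -0.084 with no filter and -0.0080 with protein-coding genes only. Leaving out each tumour moved the Casp1 value between -0.44 and 0.011, that of Pycard in the same comparison (0.13) between -0.090 and 0.56, that of Gsdmd between -0.084 and 0.051, that of Casp4 between -0.13 and 0.18, and that of Mlkl between -0.083 and 0.091. The causes were not tested.

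Leaving out each tumour gave 3 to 6 members and 7255 to 10052 genes for responders against non-responders, 1 to 3 and 5131 to 8862 for responders against stable tumours, 3 to 8 and 1470 to 3804 for stable tumours against non-responders, 6 to 8 and 10978 to 12223 for responders against controls, 8 to 8 and 6657 to 8116 for stable tumours against controls, and 5 to 6 and 1570 to 4237 for non-responders against controls. The 8 members, and the 3804 genes, came without non-responder 6. The Gsdmd call in stable tumours against non-responders was lost without non-responder 1, 2, 3 or 5 or stable tumour 2, 3, 4 or 6.

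The protein-coding share separated 7 of 8 responders from the other tumours, so in most comparisons with responders it cannot be told apart from the outcome. The numbers that open the library names also run in a separate block for each group. What those numbers stand for is not given, and any part of theirs in the differences cannot be told apart from the group. No paired analysis was possible because tumours came from separate mice and replicate numbers link no groups. Il1a, with counts from 6 to 452, had the least depth.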

Other observations

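Lymphoid and stromal markers, which the comparisons above did not use, also differed in level between the groups. T cell markers (6 genes) summed to 6.93 to 21.9 CPM in controls, 18.3 to 158 CPM in non-responders, 105 to 179 CPM in stable tumours and 69.2 to 196 CPM in responders. NK cell markers (3 genes) summed to 1.49 to 5.33 CPM in controls, 3.18 to 25.8 CPM in non-responders, 16.9 to 28.8 CPM in stable tumours and 6.70 to 24.3 CPM in responders. B cell markers (3 genes) reached at most 1.04 CPM in controls and 16.1 CPM in responders. Fibroblast markers (4 genes) had medians of 2569 CPM in controls, 5928 CPM in non-responders, 6553 CPM in stable tumours and 5340 CPM in responders. Endothelial markers (3 genes) had medians of 130.4 CPM in controls, 139 CPM in non-responders, 91.5 CPM in stable tumours and 60.4 CPM in responders. These sums are descriptions and were not tested.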
